A study of Mus musculus with 52 samples.

Results

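Between 1 and 3 months of age, before the labels place any autoimmunity, the brain of female NZB/W-F1 mice lost RNA of myelin genes, of the collagen gene Col3a1 and of elastin, and gained RNA of the alarmin Il33 and the transporter Abca8a. Most of the changes had the same direction in brains of the control strain C57BL/6. The falls of Col3a1 and elastin were lost in most fits that left out 1 library. The data are 6 of the 52 RNA-seq libraries of a series on kidney, spleen and brain, namely 3 whole brains at 3 months and 3 at 1 month, chosen by their sample titles. NZB/W-F1 mice are the hybrids of NZB mothers and NZW fathers, and their females develop a lupus-like disease with nephritis. The labels call the animals of 1 month asymptomatic and pre-puberty, those of 3 months pre-autoimmune and those of 6 months nephritic, and every animal was perfused with PBS. Female C57BL/6 mice of the same ages, a strain that does not develop this disease, served as controls with 3 brains per age, and the labels name no transgene or drug in any group.

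Myelin is the lipid-rich sheath that oligodendrocytes wrap around axons. In the mouse these cells arise from precursors marked by Pdgfra and Cspg4, pass through a short newly formed stage marked by Gpr17 and Enpp6, and then make large amounts of RNA for myelin proteins and for the enzymes of myelin lipids. Most mouse myelin is laid down in the weeks after birth, and interferon-stimulated genes, followed here because interferon is a driver of lupus, are expressed at low level in a healthy brain.

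Levels are given in CPM, read counts per 1000000 on the authors' deposited scale, and changes as log2 fold changes, in short log2 changes, with a standard error (SE) from limma on log2(CPM + 0.5), so that the change of a gene at low CPM is understated. A gene passed when its p, adjusted over all 14895 genes by the Benjamini-Hochberg method, was under 0.05. The NZB/W-F1 libraries held, in units of 1000000 reads, 6.52, 8.42 and 6.84 at 1 month and 13.6, 11.2 and 12.5 at 3 months, so the younger group was the shallower. The tissue label held against neuronal markers: Snap25, of the synaptic vesicle fusion complex, stood between 2129 and 2496 CPM and the neuronal splicing factor Rbfox3 between 224 and 298 CPM in these 6 libraries. Within the 3-month group replicate 1 stood apart, with a chi-square per gene of 20.9 and 31.6 against replicates 2 and 3, which differed from each other by 7.99. The accessions of the samples fall into 2 ranges, with the 1-month hybrids in one and the 3-month hybrids in the other, so range and age cannot be told apart in this comparison. The change from 1 to 3 months in C57BL/6 and the change from 1 to 6 months in NZB/W-F1 each lie within 1 range. Their values are given below for some of the genes and lists only. The labels do not say that the animals of a group came from separate litters, so p-values rest on the spread between animals only. That spread was estimated over all 18 brain libraries, of both strains and all ages, and moderated across genes.

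In all, 41 of 14895 genes (0.275%) passed, 7 higher and 34 lower at 3 months, and the libraries of the 2 ages did not overlap for any of them (over all genes 5.29% were higher and 5.59% lower without overlap). The direction was lopsided among genes that passed but not over the table: at an unadjusted p under 0.05 there were 1102 genes (7.4%), of which 511 were higher (3.43%) and 591 lower (3.97%), and the median log2 fold change of all genes was 0.0046. The quasi-likelihood test of edgeR on recovered reads passed 31 genes, all of them among the 41, and DESeq2 passed 76, which held all 41. An additive fit of strain, age and accession range over all 18 brain libraries took 1 age change for both strains. It passed 199 genes, 30 of the 41 among them. With these groups and ranges, its change from 1 to 3 months gives the 1-month hybrids no weight and rests mainly on C57BL/6. Values given below for the additive fit are therefore not the hybrid change corrected for range. The 11 genes that the additive fit did not pass were Hba-a1, Hbb-bs, Col26a1, Tnnc1, Tjap1, Adamts4, Fam57a, Erbb3, Trp53inp2, Zc3hav1 and Gm18517 (adjusted p 0.18 to 0.98). With only the compared groups in the fit 27 of the 41 passed, and the 14 that did not were Pdlim2, Cnp, Gal3st1, Bmf, Adamts4, Fam57a, Erbb3, Sema4d, Trp53inp2, Dnmt3a, Fmo5, Zc3hav1, C030029H02Rik and Gm18517 (adjusted p 0.052 to 0.29). Leaving out 1 library changed the count to 18, 27 and 25 without 1-month replicate 1, 2 and 3, and to 60, 13 and 20 without 3-month replicate 1, 2 and 3. Of the 41 genes, 13 passed in all 6 of these fits: Il33, Abca8a, Gpr17, Gsn, Cldn11, Mal, Mog, Fa2h, Srd5a1, Rnf122, Arpc1b, Mpzl1 and the noncoding 9630013A20Rik.

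**Figure D1:**
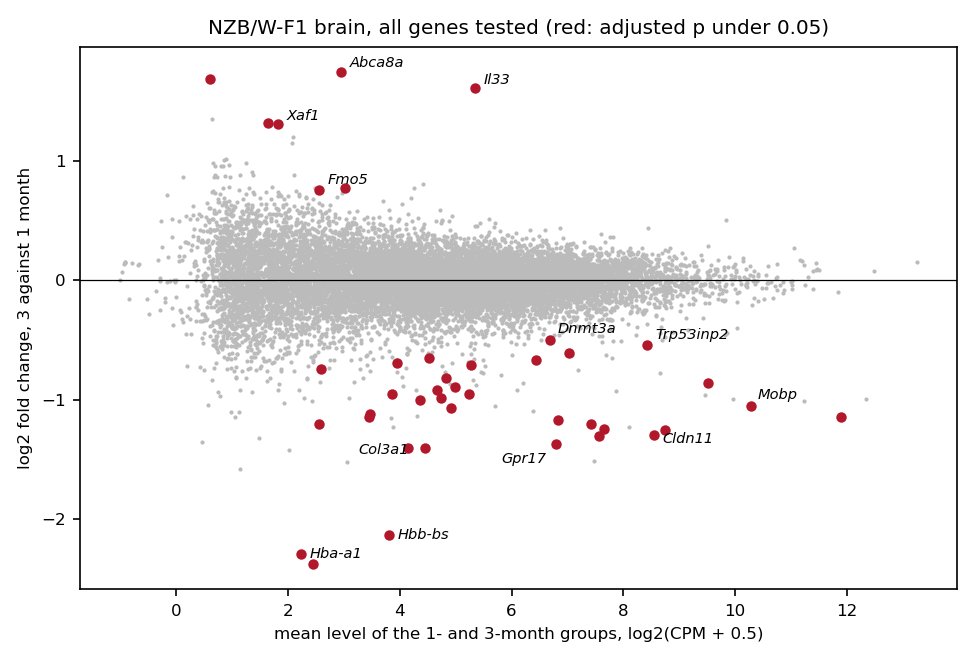
Log2 fold change from 1 to 3 months in NZB/W-F1 brain (vertical axis) against the mean level of both groups as log2(CPM + 0.5) (horizontal axis), with 1 point for each of 14895 genes. The 41 red points passed at an adjusted p under 0.05; 34 of them lie below 0, several at the right end of the axis where the myelin gene Mobp stands, and 7 lie above 0.

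Of the 20 genes in the oligodendrocyte and myelin list, 8 passed, all of them lower at 3 months (0.228% of all genes passed as lower), and the log2 fold changes of all 20 were below 0, with a median of -0.80 against 0.0046 over all genes. Summed over the list the libraries held 21028, 15014 and 16442 CPM at 1 month and 10517, 7572 and 8128 CPM at 3 months, with no overlap. In a bulk sample, fewer oligodendrocytes and less of this RNA per oligodendrocyte cannot be told apart. The summed levels of the 16 astrocyte markers (7836 to 8603 CPM at 1 month, 8069 to 8574 CPM at 3 months) and of the 16 microglia markers (479 to 521 CPM and 499 to 564 CPM) overlapped between the ages. The median of the myelin list stayed between -0.94 and -0.67 when any 1 of the 6 libraries was left out.

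Mobp (ENSMUSG00000032517, chromosome 9, 120149707 to 120181484; mm10, as all positions here), a basic protein of compact myelin, read 2049, 1464 and 1546 CPM at 1 month and 949, 731 and 752 CPM at 3 months, a 2.07-fold fall on the log2(CPM + 0.5) scale (log2 change -1.05, SE 0.18, adjusted p = 0.012). The groups stood apart, with 1-month replicate 1 the highest of all. Mbp, the basic protein that compacts the sheath, did not pass at 7941, 5561 and 7051 CPM against 4609, 2869 and 2989 CPM (log2 change -0.99, SE 0.23, adjusted p = 0.093). Its 3-month replicate 1 was the high library of that age, and without it the adjusted p was 0.029. With any other of the compared libraries left out, the adjusted p of Mbp was 0.12 to 0.47. Mobp missed the threshold with animal 1 of 1 month, or animal 2 or 3 of 3 months, left out (adjusted p 0.086 to 0.11).

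Cldn11 (ENSMUSG00000037625, chromosome 3, 31149920 to 31164324), the claudin of the tight junctions between myelin layers, read 639.8, 479 and 472 CPM at 1 month and 272, 186 and 192 CPM at 3 months, a 2.46-fold fall (log2 change -1.30, SE 0.17, adjusted p = 9.7e-04). Mog (ENSMUSG00000076439, chromosome 17, 37010743 to 37023398), an immunoglobulin-family glycoprotein of the outermost myelin surface and an autoantigen in demyelinating disease, read 287, 216 and 215 CPM and then 117, 90.4 and 102 CPM (log2 change -1.21, SE 0.15, adjusted p = 6.0e-04). For both genes the highest 3-month library lay below the lowest 1-month library. Cnp (ENSMUSG00000006782, chromosome 11, 100574904 to 100591729), the phosphodiesterase of the cytoplasm-filled channels of myelin, read 1169, 836 and 837 CPM and 598, 487 and 469 CPM (log2 change -0.86, SE 0.14, adjusted p = 0.0070). Cnp overlaps Dnajc7 on the opposite strand, and the strand setting of the libraries is not stated. Cnp missed the threshold when animal 1 of 1 month, or animal 2 or 3 of 3 months, was left out (adjusted p 0.0504 to 0.063). Mag, an adhesion molecule that faces the axon, did not pass at 601, 401 and 523 CPM against 399, 266 and 235 CPM (log2 change -0.78, SE 0.22, adjusted p = 0.25). Tspan2, a tetraspanin of early myelin, narrowly missed the threshold (log2 change -0.92, SE 0.20, adjusted p = 0.060).

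The promoters of myelin genes are shown because SOX10, the factor that drives myelin genes in oligodendrocytes, binds sites with the SOX core ACAAAG. The windows run from 250 bases before to 50 bases after the start of transcription (RefSeq, GRCm38.p6), read 5′ to 3′ on the gene's strand, with each match to ACAAAG, or to CTTTGT on the other strand, in capitals. Mobp (chr9:120149492-120149791, plus strand) holds 6 matches between 243 and 120 bases before the start. Cnp (chr11:100574689-100574988, plus strand) holds 1 match, 167 bases before the start. Mog (chr17:37023349-37023648, minus strand) also fell and holds none, and Il33 (chr19:29924863-29925162, plus strand), which rose, holds none.
Mobp: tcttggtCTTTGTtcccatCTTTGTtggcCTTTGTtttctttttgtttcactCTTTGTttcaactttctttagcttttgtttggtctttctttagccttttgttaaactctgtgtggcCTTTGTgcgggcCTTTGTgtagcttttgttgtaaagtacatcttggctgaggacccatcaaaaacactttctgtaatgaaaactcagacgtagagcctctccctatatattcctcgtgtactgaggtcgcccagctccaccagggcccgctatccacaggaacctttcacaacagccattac
Cnp: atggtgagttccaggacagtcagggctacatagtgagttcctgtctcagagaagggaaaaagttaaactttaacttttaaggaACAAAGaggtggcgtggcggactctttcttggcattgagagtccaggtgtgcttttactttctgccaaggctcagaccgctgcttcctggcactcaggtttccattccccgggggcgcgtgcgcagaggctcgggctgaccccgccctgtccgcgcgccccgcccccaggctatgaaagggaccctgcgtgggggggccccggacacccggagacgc
Mog: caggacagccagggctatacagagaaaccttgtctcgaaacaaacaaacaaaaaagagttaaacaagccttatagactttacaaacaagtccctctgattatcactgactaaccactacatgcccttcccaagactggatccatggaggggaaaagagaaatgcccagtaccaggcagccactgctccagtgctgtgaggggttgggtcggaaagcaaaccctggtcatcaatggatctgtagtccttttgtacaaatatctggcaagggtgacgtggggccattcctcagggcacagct
Il33: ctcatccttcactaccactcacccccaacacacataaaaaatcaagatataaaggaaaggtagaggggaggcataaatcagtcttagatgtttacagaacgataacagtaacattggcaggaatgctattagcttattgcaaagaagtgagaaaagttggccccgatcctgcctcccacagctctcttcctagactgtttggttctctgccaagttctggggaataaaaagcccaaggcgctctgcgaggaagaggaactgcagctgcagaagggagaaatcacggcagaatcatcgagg
The core occurred in 1495 of the 11224 tested genes with a window (13.3%), in 5 of the 24 lower genes with one (20.8%), in 1 of 6 higher genes (16.7%) and in 6 of 15 genes of the myelin list (40.0%). These are counts of letters in a window, and binding was not measured.

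RNA of 3 enzymes of myelin lipid synthesis fell. Ugt8a (ENSMUSG00000032854, chromosome 3, 125865271 to 125938619) joins galactose to ceramide, the step that makes galactosylceramide, and read 368, 254 and 236 CPM at 1 month and 121, 108 and 126 CPM at 3 months (log2 change -1.24, SE 0.19, adjusted p = 0.0053). Fa2h (ENSMUSG00000033579, chromosome 8, 111345135 to 111393824) hydroxylates the fatty acid of that lipid and read 169, 136 and 164 CPM and then 89.2, 65.2 and 55.8 CPM (log2 change -1.17, SE 0.17, adjusted p = 0.0020). Gal3st1 (ENSMUSG00000049721, chromosome 11, 3983636 to 3999326) adds the sulfate that turns galactosylceramide into sulfatide and read 41.7, 30.3 and 35.6 CPM and 24.4, 18.6 and 17.4 CPM (log2 change -0.82, SE 0.17, adjusted p = 0.040). All 3 enzymes act in galactolipid synthesis, and none of their groups overlapped. Gal3st1 was the least firm, with an adjusted p of 0.0534 in edgeR and of 0.12 to 0.26 in the 4 fits without 1 library in which it was lost. Ugt8a was lost without 3-month replicate 2 (adjusted p 0.059).

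Cholesterol, the other main lipid of myelin, is made in the brain itself, and none of its 22 tested genes passed. Of these genes 11 had an unadjusted p under 0.05, all of them lower at 3 months (3.97% over all genes), and the median was -0.26, and -0.11 in the additive fit. At 6 against 1 month in NZB/W-F1, within 1 accession range, the median was -0.33. Hmgcs1, the synthase before the rate-limiting step, read 329.7, 288 and 253 CPM and 191, 190.0 and 231 CPM (log2 change -0.51, SE 0.13, adjusted p = 0.19). The groups did not overlap, but the change was smaller than those of the 3 myelin lipid enzymes.

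**Figure D2:**
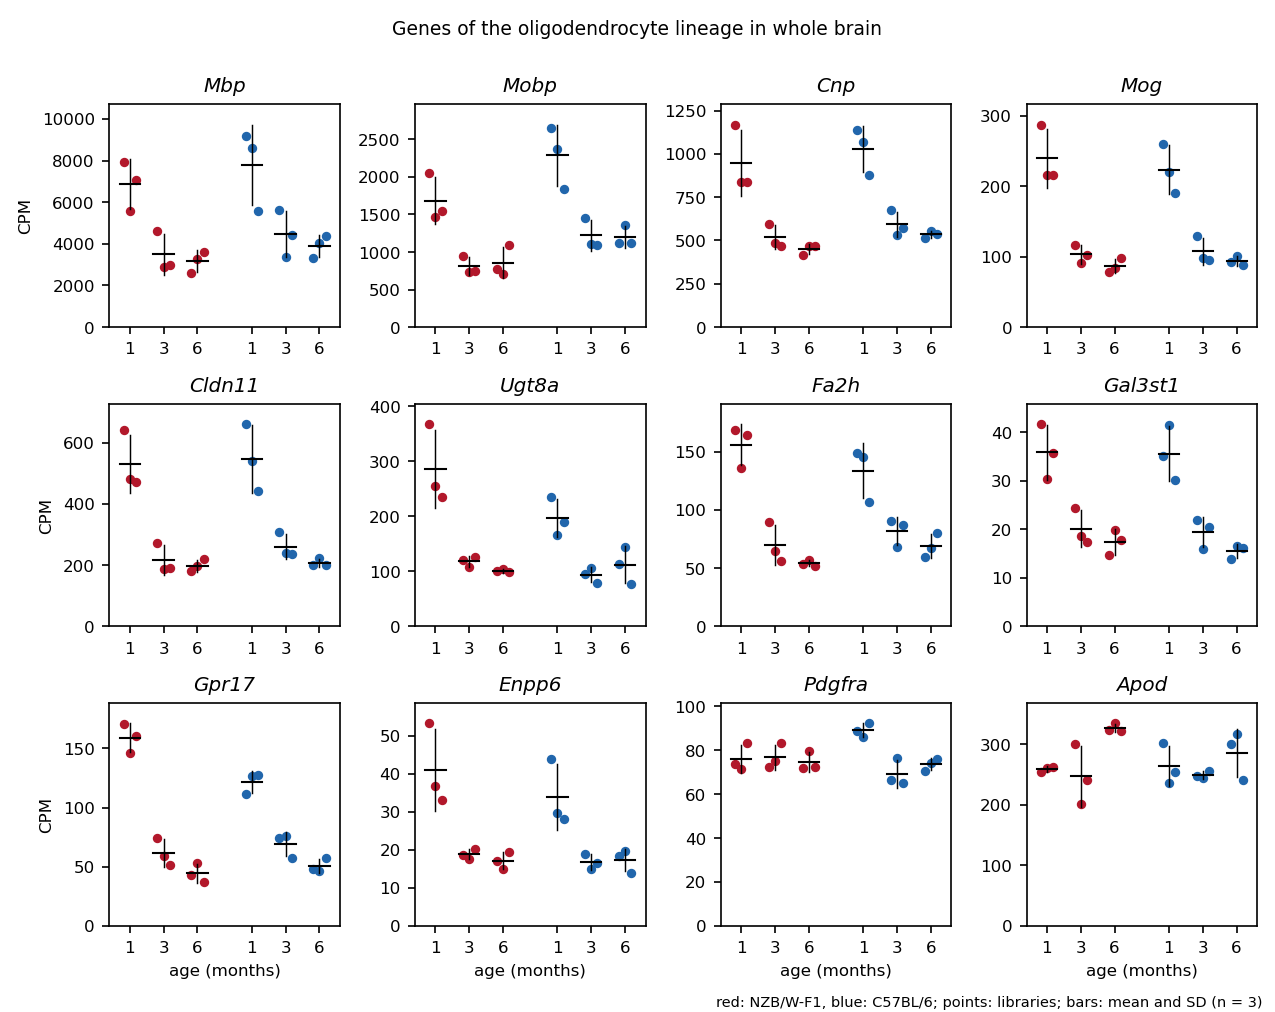
Levels of 12 genes of the oligodendrocyte lineage in CPM (vertical axes, each from 0) by age in months, in NZB/W-F1 (red) and C57BL/6 (blue). Points are libraries, bars the mean and SD of 3. From Mbp to Enpp6 the mean is lower at 3 than at 1 month in both strains, Mbp being the 1 of these that did not pass in NZB/W-F1, while the NZB/W-F1 libraries of 1 and 3 months overlap for Pdgfra and Apod.

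Markers of the newly formed stage of the lineage fell, and the precursor markers did not pass. Gpr17 (ENSMUSG00000052229, chromosome 18, 31942997 to 31949636), a receptor of cells about to become oligodendrocytes, read 170.4, 146 and 161 CPM at 1 month and 74.2, 59.4 and 51.3 CPM at 3 months, a 2.59-fold fall (log2 change -1.37, SE 0.15, adjusted p = 2.5e-04). Enpp6 (ENSMUSG00000038173, chromosome 8, 46986887 to 47096762), a choline phosphodiesterase of newly formed oligodendrocytes, read 53.2, 36.7 and 33.0 CPM and 18.5, 17.7 and 20.2 CPM (log2 change -1.07, SE 0.19, adjusted p = 0.012). Both were apart in every library, although Enpp6 did not pass with animal 1 of 1 month or animal 2 of 3 months left out (adjusted p 0.099 and 0.10), and Gpr17 overlaps Lims2 on the opposite strand. Pdgfra, the growth factor receptor of the precursors, read 73.5, 71.3 and 83.4 CPM and 72.1, 74.9 and 83.1 CPM (log2 change 0.013, SE 0.092, adjusted p = 0.99). Cspg4, the NG2 proteoglycan, read 21.2, 25.7 and 27.9 CPM and 21.9, 23.3 and 18.3 CPM (log2 change -0.23, SE 0.15, adjusted p = 0.80). The ages overlapped for both precursor markers. Of the 11 genes of the list of precursors and newly formed oligodendrocytes 2 passed, both lower (0.228% over all genes), and the median was -0.35. In it 10 genes were below 0 (51% of all genes were above 0), and 4 had an unadjusted p under 0.05, all lower (3.97% over all genes). Summed over the list the libraries held 631 to 667 CPM at 1 month and 432 to 506 CPM at 3 months. The largest fall among the genes that passed was that of 9630013A20Rik (ENSMUSG00000115529, chromosome 14, 84458639 to 84476424), a long noncoding RNA known in mouse from newly formed oligodendrocytes and named here after its values were seen. It read 12.1, 7.79 and 6.06 CPM and 1.02, 1.503 and 1.09 CPM (log2 change -2.38, SE 0.35, adjusted p = 0.0028) and lies opposite to Pcdh17.

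Not every gene of mature oligodendrocytes passed. Apod, a lipid-binding lipocalin, read 254, 261 and 262 CPM and 299.9, 201 and 240.1 CPM (log2 change -0.089, SE 0.13, adjusted p = 0.91), and the groups overlapped. Myrf, the transcription factor that myelin genes depend on, had a log2 fold change of -0.25, and Ermn, Aspa and Hapln2, of the cytoskeleton, acetylaspartate breakdown and the node matrix, had -0.25, -0.25 and -0.24 (adjusted p = 0.87, 0.83, 0.83 and 0.87). These 4 and Apod are 5 of the 6 list members with an unadjusted p of 0.05 or more; the sixth, Trf, read -0.35. The list thus spread from -1.30 for Cldn11 to -0.089 for Apod.

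Several genes outside the list that are also known from oligodendrocytes passed. Mal (ENSMUSG00000027375, chromosome 2, 127633226 to 127656695), a proteolipid of myelin membranes, read 767, 538 and 514 CPM and 276, 217 and 258 CPM (log2 change -1.26, SE 0.18, adjusted p = 0.0019). Gsn (ENSMUSG00000026879, chromosome 2, 35256380 to 35307892), the actin-severing gelsolin, read 321, 233 and 255 CPM and 137, 98.3 and 92.6 CPM (log2 change -1.31, SE 0.18, adjusted p = 0.0019). In each gene the lowest 1-month level was well above the highest 3-month level. Smaller falls were those of the aggrecan-cleaving protease Adamts4, the neuregulin receptor Erbb3 and the axon-guidance semaphorin Sema4d, at log2 changes of -0.71, -0.65 and -0.61 (adjusted p = 0.040, 0.044 and 0.026). Each of these 3 was lost in 5 or 6 of the 6 fits without 1 library (adjusted p up to 0.25, 0.27 and 0.19), and Adamts4 and Erbb3 also in edgeR (0.0534 and 0.058). Among other genes Arpc1b, of the actin-branching complex, fell by 0.92 on the log2 scale, the membrane protein Mpzl1 by 0.90 and the ubiquitin ligase Rnf122 by 0.95 (adjusted p = 0.0028, 6.0e-04 and 0.0018). These were among the 13 that passed in every fit without 1 library.

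Single genes of the fibrillar matrix fell. Col3a1 (ENSMUSG00000026043, chromosome 1, 45311538 to 45349706), the chain of type III collagen found in vessel walls and meninges, read 34.4, 32.1 and 27.0 CPM at 1 month and 15.5, 11.1 and 8.59 CPM at 3 months, a 2.65-fold fall (log2 change -1.41, SE 0.24, adjusted p = 0.012). Eln (ENSMUSG00000029675, chromosome 5, 134702593 to 134747323), the elastin of artery walls, read 26.3, 21.4 and 27.3 CPM and 12.5, 8.22 and 7.26 CPM (log2 change -1.40, SE 0.28, adjusted p = 0.040). Both genes were apart in every library. Col26a1 (ENSMUSG00000004415, chromosome 5, 136741759 to 136883209), a collagen-like secreted protein, read 6.77, 8.38 and 7.98 CPM and 3.88, 2.92 and 2.50 CPM (log2 change -1.20, SE 0.19, adjusted p = 0.0053). Col3a1 was the 1 gene of the 28 in the extracellular matrix list that passed (0.228% of all genes passed as lower). In this list 12 genes had an unadjusted p under 0.05, all lower (3.97% over all genes). There 24 genes were below 0 (51% of all genes were above 0), and the median was -0.36. Col1a2, a chain of type I collagen, did not pass and read 82.0, 77.7 and 105 CPM and 63.3, 40.8 and 37.8 CPM (log2 change -0.92, SE 0.23, adjusted p = 0.14). The basement membrane genes Nid1 and Col4a2 had log2 changes of -0.72 and -0.72 (adjusted p = 0.066 and 0.093), against 0.041 for the laminin Lamb1 and 0.28 for the small proteoglycan Dcn. Col3a1 missed the threshold when animal 1 or 2 of 1 month, or animal 2 or 3 of 3 months, was left out (adjusted p 0.063 to 0.10), and Eln missed it in 5 of the 6 fits (adjusted p 0.083 to 0.25) and in edgeR (0.058). Col26a1 missed it without 3-month replicate 2 (adjusted p 0.0501), and its log2 change in the additive fit was -0.54 (adjusted p = 0.18). The summed levels of the 17 endothelial markers overlapped between the ages (768 to 866 CPM and 722 to 803 CPM), as did those of the 9 pericyte and smooth muscle markers (197 to 244 CPM and 193 to 202 CPM).

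Haemoglobin RNA was lower at 3 months in these perfused brains. Hbb-bs (ENSMUSG00000052305, chromosome 7, 103826534 to 103828096), an adult beta chain, read 23.7, 16.0 and 27.6 CPM at 1 month and 4.10, 3.89 and 6.09 CPM at 3 months (log2 change -2.13, SE 0.42, adjusted p = 0.037). Hba-a1 (ENSMUSG00000069919, chromosome 11, 32283511 to 32284465), an alpha chain, read 7.38, 5.55 and 9.02 CPM and 0.732, 1.15 and 1.41 CPM (log2 change -2.29, SE 0.43, adjusted p = 0.025). Both are uncertain, since 54.4% and 75.5% of their 31-base words occur in another gene. Both calls were lost in all 6 fits without 1 library (adjusted p up to 0.21 and 0.13) and in edgeR (0.061 and 0.0534). In the additive fit, which gives the 1-month hybrids no weight, their log2 changes were -0.64 (adjusted p = 0.59) and -0.53 (adjusted p = 0.66). All 5 tested genes of the blood list were below 0 (51% of all genes were above 0), and 2 of them passed (0.228% of all genes passed as lower). The list summed to 35.5, 25.6 and 41.5 CPM at 1 month and 5.85, 7.07 and 9.06 CPM at 3 months. The part of residual blood in other results was not tested, and the genes Ngp, Camp, S100a8 and S100a9 of granulocytes are not among those tested.

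The clearest rise was that of Il33 (ENSMUSG00000024810, chromosome 19, 29925114 to 29960718), a nuclear alarmin of the interleukin-1 family that glia of the brain store and release on injury. It read 23.5, 16.2 and 19.7 CPM at 1 month and 56.9, 59.5 and 66.1 CPM at 3 months, so that each older animal had more than any younger one by a wide gap. The rise was 3.05-fold (log2 change 1.61, SE 0.15, adjusted p = 6.3e-05), the smallest adjusted p of the comparison. The other 12 tested genes of the cytokine and chemokine list did not pass (over all genes 0.047% passed as higher). Of these 12, 1 had an unadjusted p under 0.05, the neuronal chemokine Cx3cl1, at -0.31 (3.97% over all genes as lower). Tnf, Il1b, Il6, Ccl2 and Cxcl10 are not among the genes tested. Abca8a (ENSMUSG00000041828, chromosome 11, 110025634 to 110095978), a lipid transporter of the ABCA family, read 2.61, 2.48 and 4.29 CPM and 11.9, 11.1 and 11.1 CPM, a 3.35-fold rise (log2 change 1.75, SE 0.21, adjusted p = 6.0e-04). It rose while the myelin list fell, and Il33 and Abca8a each passed in every fit without 1 library. Fmo5 (ENSMUSG00000028088, chromosome 3, 97628804 to 97655282), a flavin monooxygenase, read 4.31, 3.66 and 3.69 CPM and 6.95, 6.63 and 7.03 CPM (log2 change 0.75, SE 0.13, adjusted p = 0.015). Fmo5 missed the threshold when animal 2 or 3 of either age was left out (adjusted p 0.075 to 0.094). The other genes that rose were the antiviral Zc3hav1 and Xaf1, given next, and the predicted genes C030029H02Rik and Gm18517, named after their values were seen, at log2 changes of 1.32 and 1.69 (adjusted p = 0.032 and 0.0077). They were lost in 5 and 3 of the 6 fits without 1 library (adjusted p up to 0.14 and 0.075), and 50.2% of the 31-base words of Gm18517 occur elsewhere.

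Of 32 tested interferon-stimulated genes 1 rose past the threshold (0.047% of all genes did), and most others had small positive values. This gene was Xaf1 (ENSMUSG00000040483, chromosome 11, 72301629 to 72313733), an interferon-inducible antagonist of the apoptosis inhibitor XIAP, with 1.54, 1.77 and 1.33 CPM at 1 month and 4.32, 4.42 and 4.92 CPM at 3 months (log2 change 1.31, SE 0.26, adjusted p = 0.037). It was lost in all 6 fits without 1 library (adjusted p 0.066 to 0.18) and in edgeR (0.068). In the list 12 genes had an unadjusted p under 0.05, all higher (3.43% over all genes), 30 of 32 were above 0 (51% over all genes) and the median was 0.31. Ifit3, which binds viral RNA together with its family, did not pass at 4.15, 6.49 and 5.62 CPM and 9.36, 7.25 and 11.3 CPM (log2 change 0.73, SE 0.21, adjusted p = 0.24). Oasl2, of the oligoadenylate synthetase family, read 2.77, 2.24 and 3.40 CPM and 4.46, 5.75 and 4.84 CPM (log2 change 0.75, SE 0.18, adjusted p = 0.10). The groups did not overlap for either, whereas Isg15 and Irf7 had 0.25 and 0.50 (adjusted p = 0.89 and 0.76). Summed over the list the libraries held 187.7, 181.6 and 204.1 CPM at 1 month and 235, 229 and 251 CPM at 3 months. The median was between 0.28 and 0.40 with any 1 library left out and 0.13 in the additive fit. Zc3hav1 (ENSMUSG00000029826, chromosome 6, 38305286 to 38354603), the zinc-finger antiviral protein and no member of the list, rose from 5.23, 5.78 and 5.32 CPM to 9.14, 11.3 and 8.67 CPM (log2 change 0.77, SE 0.15, adjusted p = 0.027), was lost in 5 of the 6 fits (adjusted p up to 0.21) and had an adjusted p of 0.058 in edgeR.

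Genes of antigen presentation showed small positive values, none past the threshold. All 11 tested genes of the MHC class I list were above 0 (51% over all genes), with a median of 0.25. Of these, 2 had an unadjusted p under 0.05 (3.43% over all genes as higher), and the median was 0.13 in the additive fit. B2m, the light chain of class I molecules, read 59.0, 45.0 and 52.9 CPM and 71.2, 56.6 and 76.7 CPM (log2 change 0.38, SE 0.14, adjusted p = 0.46), and 3-month replicate 2 lay within the 1-month range. Among 6 class II genes the median was 0.50, falling to 0.30 without 3-month replicate 1 and 0.32 in the additive fit. At 6 against 1 month in NZB/W-F1, within 1 accession range, the medians were 0.37 for class I and 0.82 for class II. Cd74, the invariant chain, read 3.38, 5.78 and 6.21 CPM and 10.97, 5.92 and 8.90 CPM (log2 change 0.69, SE 0.32, adjusted p = 0.65). Among antibody genes Ighm, the IgM heavy chain, stood between 8.61 and 18.9 CPM in these libraries and Igkc, the kappa light chain, between 0.796 and 3.69 CPM, with the ages overlapping.

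**Figure D3:**
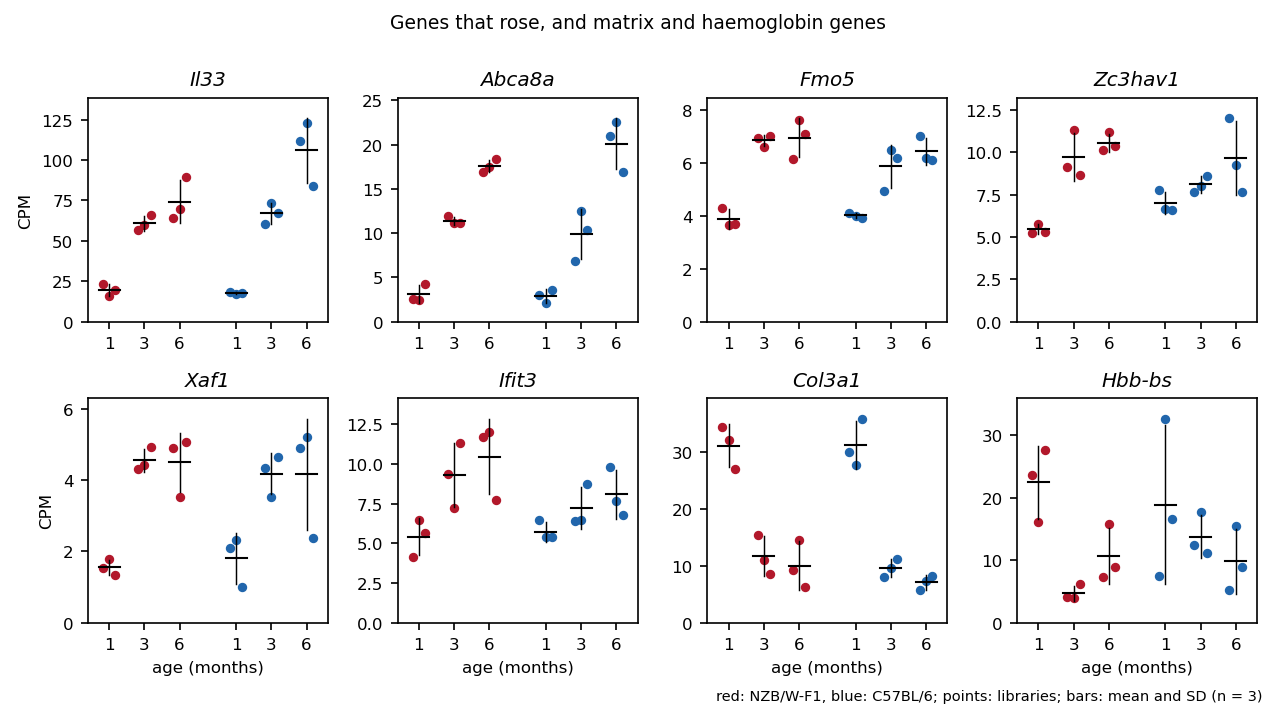
Levels of 8 genes in CPM (vertical axes, each from 0) by age in months, in NZB/W-F1 (red) and C57BL/6 (blue), with points for libraries and bars for the mean and SD of 3. Il33 and Abca8a rise from 1 to 3 months in both strains; Ifit3 did not pass in either; Hbb-bs is lower at 3 months in NZB/W-F1 with overlapping libraries in C57BL/6.

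Single genes of metabolism and signalling completed the lower group. Srd5a1 (ENSMUSG00000021594, chromosome 13, 69573449 to 69611442), the reductase that turns progesterone and testosterone into their dihydro forms, read 16.6, 14.4 and 12.9 CPM at 1 month and 7.83, 5.66 and 5.93 CPM at 3 months (log2 change -1.12, SE 0.15, adjusted p = 0.0018). It was the 1 gene of 13 in the list of steroid and thyroid hormone receptors and targets that passed (0.228% of all genes passed as lower). The interval includes puberty, and the estrogen receptor Esr1 had 0.18 (adjusted p = 0.87). Srd5a1 overlaps Nsun2 on the opposite strand. Gamt, the last enzyme of creatine synthesis, read 30.1, 25.7 and 24.8 CPM and 16.5, 12.6 and 10.9 CPM (log2 change -1.0025, SE 0.16, adjusted p = 0.0075). Dnmt3a, the methyltransferase that sets new DNA methylation in neurons after birth, read 115, 129 and 115 CPM and 73.6, 89.8 and 90.7 CPM (log2 change -0.50, SE 0.093, adjusted p = 0.023). Both pairs of groups were apart, but the calls were lost in 3 and 5 of the 6 fits without 1 library (adjusted p up to 0.069 and 0.14). Traf3, an adaptor of TNF receptor family and antiviral signalling, and Bmf, which promotes apoptosis, fell by 0.67 and 0.74 on the log2 scale (adjusted p = 0.020 and 0.044) and were lost in 5 and 6 of these fits (adjusted p up to 0.13 and 0.17). The remaining lower genes were Tnnc1, Pdlim2, Tjap1, Fam57a and Trp53inp2, with log2 changes of -1.15, -0.99, -0.95, -0.70 and -0.54. Those other than Tjap1 were lost in 2 to 5 of the 6 fits (adjusted p up to 0.15, 0.25, 0.069 and 0.14), and Tnnc1 and Fam57a overlap genes on the opposite strand. So do Adamts4, Arpc1b, Dnmt3a, Enpp6, Eln, Mog, Tjap1 and Traf3, and without strand such reads cannot be told apart.

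Most of these changes were present in C57BL/6 brains of the same ages, which share no library with the hybrids. There 74 genes passed (0.497%), 28 higher and 46 lower. Of these, 23 were among the 41 of NZB/W-F1, which is 56.1% of the hybrid genes and 31.1% of the C57BL/6 genes, and all 23 moved in the same direction. Of the 41 genes, 40 had the same sign in C57BL/6 (50.1% of all genes were above 0 there), 36 of these also had an unadjusted p under 0.05 (10.2% of all genes did), and 34 had no overlap between the C57BL/6 libraries of 1 and 3 months (8.67% higher and 8.41% lower over all genes). The median of the 34 lower genes was -1.06 in NZB/W-F1 and -0.83 in C57BL/6. Mog read 260.0, 219.7 and 191 CPM at 1 month and 129, 97.9 and 95.4 CPM at 3 months in C57BL/6 (log2 change -1.05, SE 0.15, adjusted p = 0.0020). Il33 read 18.2, 17.4 and 17.5 CPM and 60.4, 73.5 and 67.5 CPM there (log2 change 1.89, SE 0.15, adjusted p = 5.0e-06). The myelin list had a median of -0.65 with 8 of 20 genes passing as lower (0.309% of all genes in C57BL/6), and the matrix list -0.31 with 3 of 28 passing as lower, Col3a1 at -1.65 (adjusted p = 0.0033).

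**Figure D4:**
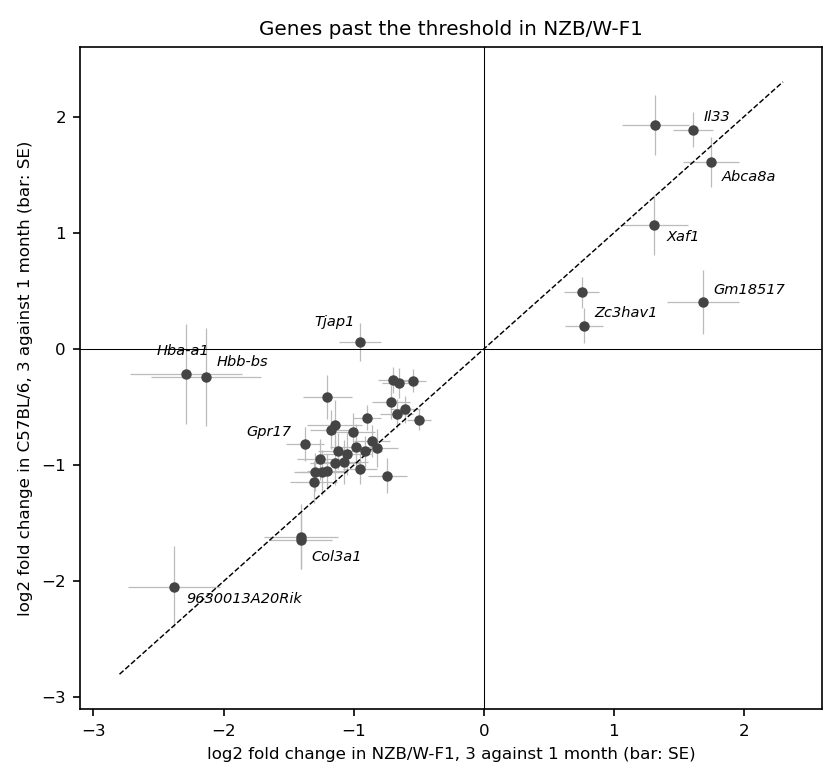
Log2 fold change from 1 to 3 months in C57BL/6 (vertical axis) against NZB/W-F1 (horizontal axis) for the 41 genes that passed in NZB/W-F1, with bars for the SE and a dashed line of equal change. The genes were chosen on the horizontal values. All but Tjap1 have the same sign in both strains, and Tjap1, Hba-a1, Hbb-bs, Zc3hav1 and Gm18517 are the 5 with an unadjusted p of 0.05 or more in C57BL/6.

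The test of the difference between the strains passed for 1 gene of 14895 (0.00671%), Gm42756, which is none of the 41, and 805 genes had an unadjusted p under 0.05 (5.4%). In this test the 1-month hybrids lie in one accession range and all the other groups in the other. A difference between the strains can therefore not be told apart from range in it. Among the 41 genes, 8 had an unadjusted interaction p under 0.05 and none passed. Tjap1, a tight junction-associated protein, was the gene of opposite sign: it read 51.8, 41.4 and 54.1 CPM and 30.7, 24.3 and 20.9 CPM in NZB/W-F1 and 19.1, 21.9 and 18.2 CPM and 22.7, 18.5 and 20.6 CPM in C57BL/6. Among the hybrids of 3 months 1 animal lay within the C57BL/6 range and the others above it (interaction -1.01, SE 0.23, adjusted p = 0.75). Its call in NZB/W-F1 was lost in 4 of the 6 fits without 1 library (adjusted p 0.084 to 0.10). In the additive fit, which gives the 1-month hybrids no weight, the change was 0.018. Hbb-bs read 7.51, 32.7 and 16.5 CPM and 12.5, 17.7 and 11.2 CPM in C57BL/6, an overlapping pair of groups (interaction -1.90, adjusted p = 0.79). Gpr17 had a log2 change of -0.82 in C57BL/6 (adjusted p = 0.019) against -1.37 in the hybrids (interaction -0.56, adjusted p = 0.86). For the interferon-stimulated list C57BL/6 had a median of 0.11, with 3 genes higher and 1 lower at an unadjusted p under 0.05 (4.99% and 5.19% over all genes); 1 gene of the list, Oasl2, had an unadjusted interaction p under 0.05 (2.4% over all genes as higher).

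Among lists of activity and stress genes no member passed the interaction test. Here too a difference between the strains cannot be told apart from accession range. The 24 immediate early genes, which neurons switch on within minutes of activity, had a median of -0.0055 in NZB/W-F1 and 0.82 in C57BL/6. Of these genes 8 had an unadjusted interaction p under 0.05, all with a lower log2 change in the hybrids than in C57BL/6 (3% over all genes). Fos, a transcription factor of this class, had log2 changes of 0.20 and 1.33 in the 2 strains, and Nr4a2, the 1 member that passed in C57BL/6, had 0.28 and 1.01 (adjusted p = 0.062 and 0.022 in C57BL/6). Summed over the list, the 3 hybrid groups lay between 1294 and 2345 CPM, and C57BL/6 from 797 to 1417 CPM at 1 month, from 2043 to 2233 CPM at 3 months and from 1316 to 2406 CPM at 6 months. The hybrid median was 0.32 without 1-month replicate 2 and -0.26 without 3-month replicate 1. The additive fit, which rests mainly on C57BL/6, gave 0.77, and NZB/W-F1 at 6 against 1 month gave 0.027. The 18 heat shock genes had medians of -0.18 and 0.25, with 7 at an unadjusted interaction p under 0.05, all lower in the hybrids (3% over all genes). The hybrid median was -0.090 without 3-month replicate 2. The additive fit, which rests mainly on C57BL/6, gave 0.24, and NZB/W-F1 at 6 against 1 month gave -0.13. Among the heat shock genes Hsph1, a co-chaperone, had -0.20 and 0.43 in the 2 strains (interaction adjusted p = 0.75).

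The genes named next that were lower at 3 months were also below their 1-month levels at 6 months in NZB/W-F1. The 6-month values share the 1-month libraries with the main comparison when set against 1 month and the 3-month libraries when set against 3 months. Mog read 77.8, 84.3 and 97.3 CPM, with log2 changes of -1.46 against 1 month and -0.25 against 3 months, and Gpr17 42.8, 53.3 and 37.4 CPM (-1.84 and -0.46). Col3a1 read 9.32, 14.6 and 6.17 CPM (-1.66 and -0.25). The myelin, matrix and interferon-stimulated lists had medians of -0.9961, -0.36 and 0.36 at 6 against 1 month, a comparison within 1 accession range. Il33 read 64.1, 69.7 and 89.2 CPM (1.88 and 0.28) and Abca8a 16.9, 17.5 and 18.3 CPM (2.35 and 0.60), so their 6-month levels were the highest of the 3 ages on average. Hbb-bs, in contrast, read 7.26, 15.7 and 8.92 CPM, between the other ages. None of the changes from 3 to 6 months named here passed (adjusted p 0.82 to 0.97).

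Other cell types and pathways showed no gene past the threshold. This held for the lists of neuron maturation (20 genes, median 0.009), GABA and glutamate receptor subunits (0.035 and 0.029), astrocytes (0.026), microglia (0.064), endothelium (-0.091), choroid plexus (0.17), the circadian clock (0.081), ribosomal proteins (0.11) and the nuclear-encoded respiratory chain (-0.016). Of the 21 immature neuron genes 19 were below 0 (51% of all genes were above 0), with a median of -0.14. Marcksl1, a cytoskeletal protein of growing neurons, read 155, 167 and 169 CPM and 115, 100.1 and 103 CPM (log2 change -0.62, SE 0.14, adjusted p = 0.087), while Dcx, of migrating neurons, had -0.059. The 10 genes of the striatum were all below 0, with a median of -0.51 and 5 at an unadjusted p under 0.05 (3.97% over all genes as lower). Without 1-month replicate 1 the list's median was -0.23. In the additive fit, which gives the 1-month hybrids no weight, the list's median was 0.13. At 6 against 1 month in NZB/W-F1, which shares the 1-month libraries and lies within 1 accession range, it was -0.68. How much striatum each piece of tissue held was not measured, and its part in the other results was not tested.

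**Figure D5:**
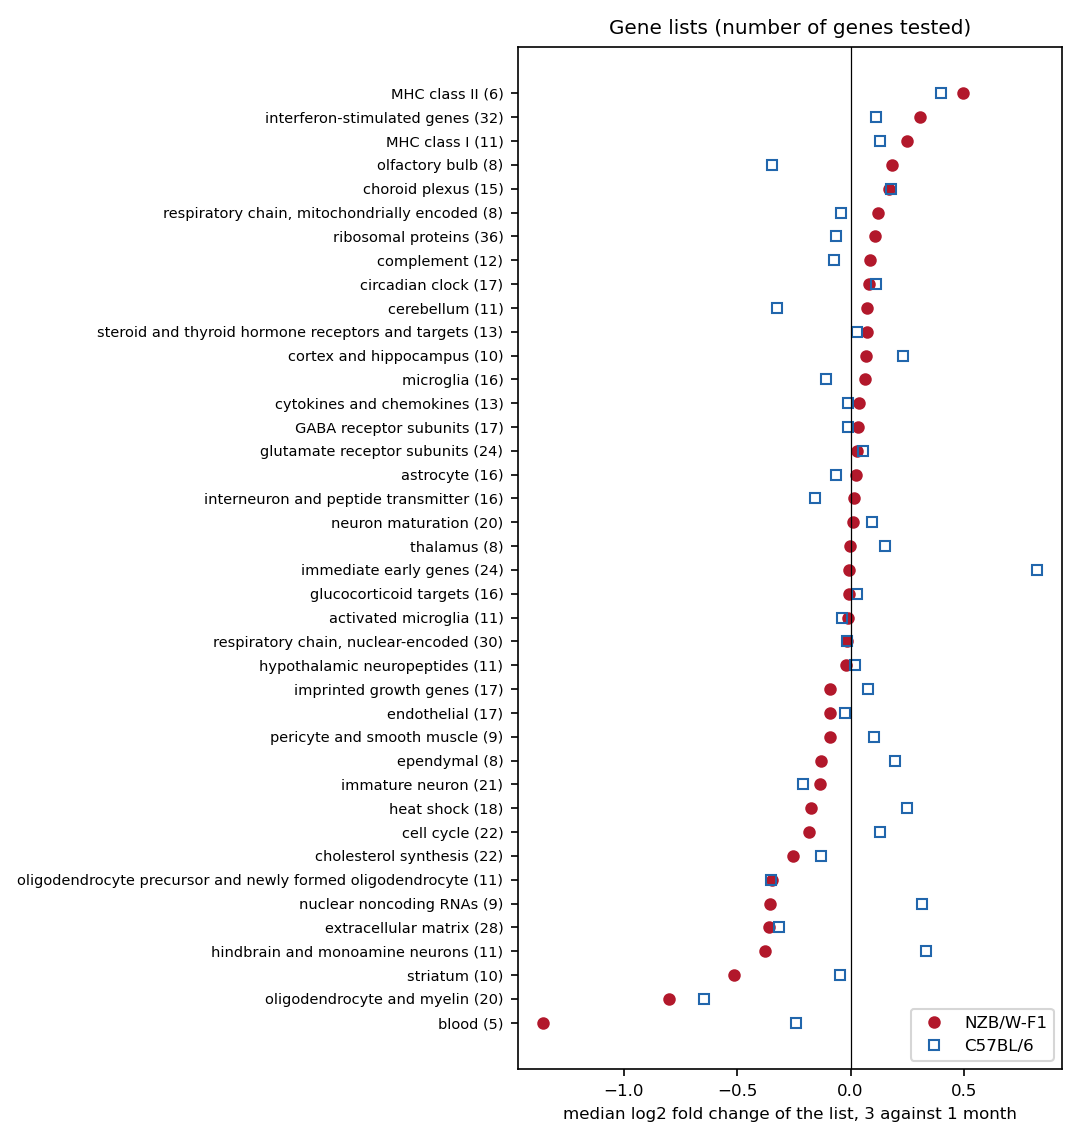
Median log2 fold change from 1 to 3 months (horizontal axis) of each gene list with at least 5 genes tested (rows, number tested in brackets), in NZB/W-F1 (filled red circles) and C57BL/6 (open blue squares). The myelin list is low in both strains (-0.80 and -0.65), the interferon-stimulated list is at 0.31 and 0.11, and immediate early genes are at -0.0055 and 0.82.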

How the data were processed

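RNA of whole brains was extracted with TRIzol and made into libraries with the TruSeq RNA Sample Prep Kit v2, per the labels' protocols. The submitters' processing notes name STAR 2.6, HTSeq, edgeR and the build mm10; filters, annotation and strand setting are not given in the sources used here. The deposited brain table holds 14895 genes in 18 libraries as a normalized signal: read counts per 1000000 (CPM) scaled so that the library totals have a geometric mean of 1000000. The plan had assumed plain CPM. Whole reads, recovered from the steps of the deposited values within 0.01, gave 6.52 to 17.5 per library in units of 1000000 reads. A count of 3 reads, the limit that a count of 0 allows, stands for 0.219 to 0.461 CPM in the compared libraries, and this covers counting error only.

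Samples were grouped by title. limma 3.58.1 (R 4.3.3, trended, moderated, two-sided) was fitted to log2(value + 0.5) with 6 group means (strain by age), after a filter of 1 CPM in 3 libraries that every gene passed. Adjusted p-values are Benjamini-Hochberg over 14895 genes. The interaction is the NZB/W-F1 change minus that of C57BL/6. Alternatives were edgeR 4.0.16 and DESeq2 1.42.0 on recovered reads, other scaling, pseudocount, filter and samples, an additive fit with accession range, a replicate block, and each library left out. Identifiers matched GENCODE vM21 for 14888 genes. Genes named by rule had an adjusted p under 0.05, no overlap and a group mean of 5 CPM or more, or were among the 4 members of a list with the smallest p past the threshold; the other genes that passed were named after their values were seen. The members and lists were chosen with earlier results of these data known. The scripts were tested on simulated data. Some members of the lists are counted but not reported by name here.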

Additional observations from a re-analysis of the deposited data

Results flagged for a closer look

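The difference between the strains in the change from 1 to 3 months passed for 1 gene, Gm42756 (chromosome 9, 109537100 to 109552780), an antisense gene that overlaps Gm43089 and Fbxw15 on the opposite strand and was named after its values were seen. NZB/W-F1 held 0, 0 and 1 reads at 1 month and 2, 1 and 1 reads at 3 months, while C57BL/6 held 2, 1 and 1 reads and then 36, 45 and 62 reads. The log2 fold change was 0.15 in NZB/W-F1 and 2.55 in C57BL/6, a difference of -2.40 (SE 0.32, adjusted p = 0.0080 in limma). The change is that of C57BL/6, and edgeR passed 0 genes in this test.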

How the results depend on the processing

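The direction of the change was the same under every alternative for 40 of the 41 genes. Tjap1 read 0.018 (adjusted p = 0.98, limma) in the additive fit of strain, age and accession range. The age change of that fit gives the 1-month hybrids no weight and rests mainly on C57BL/6. The value is therefore not a reversal of the hybrid change. Genes that passed in NZB/W-F1 numbered 41 in limma, 76 in DESeq2 and 31 in edgeR. They numbered 32 with only the compared groups (27 of the 41) and 13 to 60 with 1 library left out. The additive fit passed 199 genes (30 of the 41 among them) for the age change that it takes for both strains. In C57BL/6 there were 74 in limma, 237 in DESeq2, 98 in edgeR, 45 with only the compared groups and 23 to 34 with 1 library left out, all fewer than with all libraries. The interaction passed for 1 gene, and for 0 in edgeR, 2 in DESeq2, 0 at a pseudocount of 0.1, 0 with a filter of 5 CPM, 0 with only the compared groups and 0 to 2 with 1 library left out. Leaving out a library also leaves fewer samples in the fit. A 6-month NZB/W-F1 library with Xist at 0.857 CPM (306 to 730 CPM in the others), left out after seeing the data, gave 36, 64 and 1. The replicate block gave 33, 54 and 1. Same-numbered NZB/W-F1 libraries had correlations of -0.07, 0.25 and -0.26, so the numbers were not taken to pair the animals. Depth was lowest at 1 month, and low genes there are the least precise.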
